A study of Mus musculus with 12 samples.

Results

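GW3965, a synthetic agonist of the liver X receptors (LXR), was compared with its solvent in neural progenitor spheres of the embryonic mouse midbrain. The comparison took the 3 libraries titled GW3965 and the 3 titled Control, 6 of the 12 libraries of the study, and joined those of the same replicate number into 3 pairs. Spheres came from the ventral midbrain of CD-1 embryos at E11.5, had grown for 3 days, and were then exposed for 5 h in N2 medium. Control spheres received the vehicle DMSO (their treatment tag reads "none"). The other 6 libraries were treated with CT99021, an inhibitor of glycogen synthase kinase 3, alone or together with GW3965, and serve below to ask whether a difference was found again. They also entered the fit that estimates the spread between replicates, and with the 6 libraries of the comparison alone edgeR called 0 genes (726 at an unadjusted p under 0.05). The labels state no dose. Nor do they state that each replicate was its own culture, and the p-values below therefore reflect only how much these libraries vary, part of which may be technical. The spheres are cultured progenitors mixed with other cells of the dissected region, and in such bulk samples fewer cells of a type and less RNA per cell cannot be told apart.

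LXR alpha (Nr1h3) and LXR beta (Nr1h2) are nuclear receptors that bind oxysterols and sit on DNA as partners of the retinoid X receptors. Bound to an agonist, they switch on genes that move cholesterol out of the cell and genes that make and desaturate fatty acids, in part through Srebf1, the gene of the transcription factor SREBP-1c. In the developing ventral midbrain, LXR and its oxysterol ligands are known for promoting dopaminergic neurogenesis.

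The test across 15608 genes called 3 (0.0192%), and each is a core LXR target: Abca1 and Abcg1, which export cholesterol, and Srebf1. All 3 rose, and no gene fell. At an unadjusted p under 0.05 edgeR had 156 genes higher and 230 lower. The 6 libraries held between 9646424 and 21314093 gene counts. Libraries numbered 3 stood apart in all 4 groups, for example in mesenchyme and pericyte genes, which summed to 2591 to 3933 CPM (counts scaled to the size of the library) there and to 239 to 2288 CPM in the others. GW3965+CT99021 replicate 2 also stood out, at 955 CPM against 239 to 354 CPM in the others of its number. Values are therefore given for each pair, and in the 7 libraries without these 5 the same 3 genes passed, together with Scd1 and Scd2, in a fit added after seeing the data. Without the libraries numbered 3 alone, Abca1, Srebf1 and Scd2 passed and Abcg1 did not. Progenitor and midbrain genes were present in every one of the 6 libraries, with Sox2 at 132 to 239 CPM, Nes at 471 to 931, Otx2 at 68.1 to 137 and Foxa2 at 7.04 to 37.2.

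The promoters of the genes that led the higher side are shown first, because LXR is known to bind a direct repeat of AGGTCA with a spacer of 4 bases. RefSeq promoter windows of 300 bases (build GRCm38.p6, from 250 bases before to 50 after the start) were searched on both strands for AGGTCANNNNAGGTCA. Of the 15 genes of lowest p on the higher side, 10 had a promoter in the table, and 7 of these 10 held a match with up to 3 mismatches in the repeated hexamers. That loose match was present in 21.9% of all 32851 promoters and in at least 1 promoter of 24.5% of 27025 genes. Of 41 listed genes of sterol transport and fatty acid synthesis, 31 had a promoter in the table, and 12 of these 31 held such a match. Each sequence below is given 5′ to 3′ on the strand of its gene, with the matching 16 bases in capitals. The Abca1 stretch lies at chr4:53159927-53159982 (minus strand), the Srebf1 stretch at chr11:60210618-60210673 (minus), in 1 of its 3 listed promoters, and the Fasn stretch at chr11:120824737-120824792 (minus). Those of Prrg4, Acsl3 and Rnf145 lie at chr2:104849882-104849937 (minus), chr1:78657693-78657748 (plus) and chr11:44520177-44520232 (plus). The remaining gene with a match, Scd3 (3 mismatches), is not shown.
Abca1: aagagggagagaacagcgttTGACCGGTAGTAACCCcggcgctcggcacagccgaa
Srebf1: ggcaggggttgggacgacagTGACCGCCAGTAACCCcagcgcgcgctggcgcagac
Fasn: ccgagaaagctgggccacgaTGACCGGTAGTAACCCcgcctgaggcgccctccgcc
Prrg4: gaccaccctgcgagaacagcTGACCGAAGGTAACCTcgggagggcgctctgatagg
Acsl3: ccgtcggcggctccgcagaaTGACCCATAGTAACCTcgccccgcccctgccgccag
Rnf145: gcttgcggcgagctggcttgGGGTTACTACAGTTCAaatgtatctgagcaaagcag

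The matches of Abca1, Srebf1 and Fasn each held 3 mismatches, those of Prrg4 and Acsl3 held 2, and that of Rnf145 held 3. Counted from the first transcribed base as 0, the match of Abca1 spanned -67 to -52, that of Srebf1 -182 to -167 and that of Fasn -225 to -210. Read on the strand of the motif, Abca1 and Fasn carried the identical 16 bases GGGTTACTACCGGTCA, and Srebf1 carried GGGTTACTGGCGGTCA. A stretch chosen after seeing the matches of Abca1, Srebf1 and Fasn, GGTTANNNNCGGTCA with no mismatch, occurred in 4 of the 32851 promoters (0.0122%). The promoters were those 3, whose match was fixed by the choice of the stretch, and that of Prrg4. A match describes letters in a window and is not a measured binding site. With at most 2 mismatches, the main setting, 2 of the 10 genes (Prrg4 and Acsl3) and 2 of the 31 listed held a match. Over all promoters the share was 3.02%, and over all genes 3.47%.

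Abca1 loads cholesterol onto apolipoproteins at the cell surface and is listed at position 53043660 of chromosome 4 (minus strand, mm9). Its level in Control libraries 1, 2 and 3 was 39.1, 27.4 and 113 CPM, and in GW3965 libraries 106, 123 and 476 CPM. The groups overlapped, because both libraries numbered 3 were high, but every pair had the treated library higher, by 1.44, 2.17 and 2.07 on the log2 scale. The fitted log2 fold change over the 3 pairs was 1.89 ± 0.17, which is 3.71-fold (edgeR adjusted p = 0.00388). Here and below, ± after a log2 fold change is a standard error (SE) derived from edgeR's F statistic. That statistic comes from the fit to all 12 libraries, and the same holds for differences between 2 log2 fold changes. This call was lost without Control replicate 2 or without Control replicate 3, with Srebf1 the only gene past the test in both cases.

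Abcg1 passes cholesterol to lipoprotein particles (position 31194538 of chromosome 17, plus strand, mm9). It measured 19.7, 13.8 and 9.04 CPM in Control and 56.5, 42.9 and 57.3 CPM in GW3965. The groups did not overlap. Pair ratios were 1.52, 1.63 and 2.65 on the log2 scale, and Abcg1 rose 3.78-fold (log2 fold change 1.92 ± 0.23, edgeR adjusted p = 0.0321). Abcg1 passed under 10 of 23 alternatives, the fewest of the 3 calls. Among libraries left out singly, its call was lost without any 1 of the Control or GW3965+CT99021 libraries and without GW3965 replicate 1 or 2, and its log2 fold change stayed between 1.58 and 2.13 over all alternatives.

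Srebf1 (position 60012590 of chromosome 11, minus strand, mm9) measured 86.1, 106 and 78.9 CPM in Control and 201, 267 and 246 CPM in GW3965. The lowest treated library lay well above the highest Control library. Srebf1 rose 2.63-fold, with a log2 fold change of 1.40 ± 0.09 and pair ratios of 1.23, 1.33 and 1.64 (edgeR adjusted p = 2.6e-04). It had the lowest p of all genes tested. Leaving out any single library did not end this call, but it was lost without the libraries numbered 2, in the 6 libraries alone and without the replicate block. In each of these edgeR called 0 genes, with 309, 726 and 23 at an unadjusted p under 0.05.

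**Figure D1:**
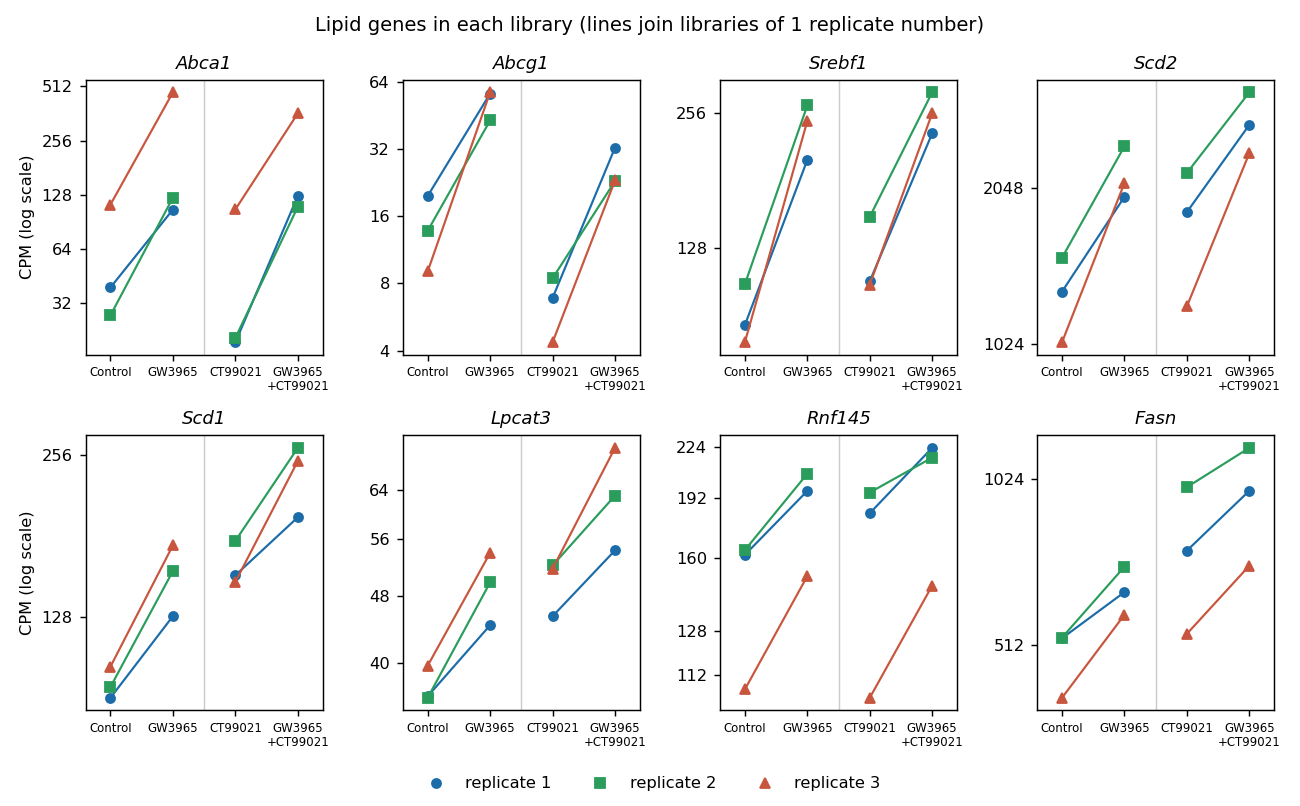
Levels of 8 lipid genes in each of the 12 libraries, as CPM on a log scale; each symbol is 1 library, and lines join the libraries of 1 replicate number without and with GW3965. In every panel all 6 lines slope upward, and Abca1 in the libraries numbered 3 starts at 113 CPM, about the level the other GW3965 libraries end at.

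Genes of fatty acid synthesis came next. The stearoyl-CoA desaturases, which place a double bond in saturated fatty acids, are encoded by 4 neighbouring genes of similar sequence on chromosome 19. How any shared reads were assigned is not given in the sources used here. Per kilobase Scd2 had the highest level of the 4 in Control, at 229 CPM against 5.76 to 19.6 for Scd1, Scd3 and Scd4. It measured 1290, 1500 and 1030 CPM in Control and 1967, 2463 and 2092 CPM in GW3965. Its groups did not overlap, and its pair ratios were 0.61, 0.72 and 1.02 on the log2 scale. The fitted log2 fold change of 0.79 ± 0.11 did not pass edgeR's test (adjusted p = 0.135). Scd1 had 90.9, 95.2 and 104 CPM in Control against 129, 156 and 174 CPM in GW3965, a log2 fold change of 0.65 ± 0.10 (adjusted p = 0.135). Scd3 and Scd4 had values of 0.66 ± 0.11 and 0.63 ± 0.13 (edgeR adjusted p = 0.351 and 0.959). DESeq2 called all 4 desaturases, 7 genes in total with the 3 above, whereas limma-voom called none of the 4. Over the 23 alternatives Scd2 passed in 5, Scd1 in 4, and Scd3 and Scd4 in 1 each. Mir5114, a further gene on the higher side at 0.76 ± 0.23, lies inside Scd2, and the reads of the 2 cannot be told apart.

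Lpcat3, which inserts polyunsaturated chains into phospholipids, measured 36.5, 36.4 and 39.7 CPM in Control and 44.3, 49.7 and 53.9 CPM in GW3965. The groups did not overlap, and the log2 fold change was 0.39 ± 0.08 (edgeR adjusted p = 0.886). Fasn, the fatty acid synthase, had 526, 528 and 410 CPM in Control and 638, 710 and 581 CPM in GW3965, a log2 fold change of 0.40 ± 0.11. Acsl3, which activates fatty acids, had 103, 111 and 114 CPM in Control and 132, 135 and 181 CPM in GW3965, a log2 fold change of 0.43 ± 0.10. Both were separated between groups, and neither passed (edgeR adjusted p = 0.959 for each). Rnf145, a ubiquitin ligase of the endoplasmic reticulum, measured 162, 164 and 107 CPM in Control and 196, 207 and 151 CPM in GW3965. Its groups overlapped, but all 3 pair ratios were positive, at 0.28, 0.34 and 0.50.

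Of 25 listed genes around Srebf1, fatty acid and phospholipid synthesis, 24 were tested. Srebf1 alone passed. At an unadjusted p under 0.05, 11 of these genes were higher and 0 lower, beside 156 higher and 230 lower of all 15608 tested. The median log2 fold change was 0.19, against -0.003 over all genes tested. In 15 of the 24, all 3 pairs were higher, where 14.2% of all genes tested did the same, and in 2 all were lower (19% of all genes). The median was positive in each pair, at 0.13, 0.16 and 0.35. Acaca, the first committed enzyme of fatty acid synthesis, had a log2 fold change of 0.19 ± 0.08 and was higher in all 3 pairs. Other enzymes had values near or below 0. Acly, which supplies cytosolic acetyl-CoA, had -0.18 ± 0.11, and the elongase Elovl6 had -0.27 ± 0.13, a value carried by pair 3 (-0.72, against -0.03 and -0.04 in the others). Fads1 and Fads2, the desaturases of polyunsaturated fatty acids, had 0.10 ± 0.07 and 0.07 ± 0.07.

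Of 16 listed LXR targets of sterol transport, 13 were tested and 2 passed, Abca1 and Abcg1. The median log2 fold change was 0.05. Of the 13, 6 were higher in all 3 pairs (14.2% of all genes tested) and 1 lower (19%). Apoe, the lipoprotein that carries cholesterol in the brain, measured 144, 111 and 131 CPM in Control and 142, 97.1 and 148 CPM in GW3965, a log2 fold change of -0.01 ± 0.11. Arl4c, Pltp and Lpl, which are known LXR targets in other tissues, had 0.05 ± 0.08, 0.04 ± 0.13 and 0.03 ± 0.21. Mylip, a ubiquitin ligase that limits cholesterol uptake, had positive ratios of 0.18, 0.50 and 0.50 in the 3 pairs and a fitted value of 0.39 ± 0.20 (edgeR adjusted p = 0.959). Abcg4, a brain-enriched relative of Abcg1, had ratios of 0.25, 0.24 and 0.21 and a fitted value of 0.24 ± 0.11. Abcg5, Abcg8 and Apoc2 had too few counts to be tested.

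Both receptors were transcribed, at unequal levels. Per kilobase of transcript, Nr1h2 stood at 20.2 CPM and Nr1h3 at 0.817 CPM in Control, the mean over 3 libraries. Nr1h2 measured 41.4, 44.5 and 39 CPM in Control and 37.3, 40.5 and 46.3 CPM in GW3965. Nr1h3 measured 0.834, 0.989 and 3.41 CPM in Control and 2.03, 1.08 and 5.53 CPM in GW3965, with a log2 fold change of 0.75 ± 0.39 and overlapping groups (edgeR adjusted p = 0.959). The partners Rxra and Rxrb stood at 11.6 and 20.9 CPM per kilobase in Control, and Rxrg at 0.861. Of 15 receptors, partners and coregulators, none passed edgeR's test and 0 had an unadjusted p under 0.05. In this list 1 gene was higher in all pairs (14.2% of all genes tested) and 1 lower (19%), and the median log2 fold change was 0.02.

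Genes of cholesterol synthesis and uptake, which follow SREBP-2 and cell sterol rather than LXR, had 22 members tested and 0 past edgeR's test, with 0 at an unadjusted p under 0.05. Sqle, the squalene epoxidase of the pathway, measured 191, 194 and 180 CPM in Control and 186, 188 and 119 CPM in GW3965, a log2 fold change of -0.23 ± 0.12. Its treated library of pair 3 was the low one. Cyp51, a demethylase of the later steps, had -0.06 ± 0.10, and Insig1, which holds SREBP in the endoplasmic reticulum, had 0.02 ± 0.10. Over the list the median was 0.04 in pair 1, -0.05 in pair 2 and -0.44 in pair 3, and the fitted median was -0.14. Here 4 of the 22 were lower in all 3 pairs, where 19% of all genes tested were. In the CT99021 background 11 of the 22 were, against 11.3% of all genes, and the difference between backgrounds was not tested for the list. Srebf2 itself had -0.03 ± 0.08. Of 7 listed oxysterol enzymes 5 were tested and 0 passed, with 0 at an unadjusted p under 0.05. Cyp46a1, the cholesterol 24-hydroxylase, was at 5.43 ± 0.602 CPM in Control and 4.75 ± 1.08 CPM in GW3965 (SD, n = 3).

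The 6 libraries with CT99021 share no sample with this comparison, though the model estimates the spread over all 12 and the replicate numbers are the same. There the same test of GW3965+CT99021 against CT99021 called 3 genes (0.0192%), and they were again Abca1, Abcg1 and Srebf1. Abca1 went from 19.4, 20.5 and 106 CPM to 126, 110 and 363 CPM, a log2 fold change of 2.26 ± 0.18 (edgeR adjusted p = 0.0013). Abcg1 went from 6.89, 8.43 and 4.36 CPM to 32.4, 23 and 23.1 CPM, 1.98 ± 0.25 (adjusted p = 0.0496). This call of Abcg1 passed under 9 of 23 alternatives and was lost without Control replicate 1 or 2, CT99021 replicate 1 or 3, GW3965 replicate 1 or 2, or any GW3965+CT99021 library left out singly. Srebf1 went from 108, 150 and 106 CPM to 231, 286 and 256 CPM, 1.10 ± 0.09 (adjusted p = 0.0013). The difference between the 2 log2 fold changes of Srebf1 was -0.30 ± 0.12 (edgeR interaction, adjusted p = 0.999). For no gene did this difference pass (0 of 15608, 523 at an unadjusted p under 0.05).

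The 15 genes of lowest p on the higher side were Srebf1, Abca1, Abcg1, Scd2, Scd1, Scd3, Lpcat3, Scd4, Rnf145, Acsl3, Fasn, Prrg4, Cfp, Mir5114 and Ttc14. By the rule of choice all were higher in every GW3965 pair, and 13 of 15 were also higher in every pair of the CT99021 libraries, where 13.9% of all genes were. The exceptions were Cfp and Ttc14. Their median log2 fold change was 0.65 in the comparison that chose them and 0.47 in the CT99021 libraries. Of the 15, 10 belong to the 2 lipid lists, which were chosen with earlier results known. In 9 of the 15 every GW3965 library lay above every Control library (1.26% of all genes tested), a description that follows from how they were chosen. Prrg4, a membrane protein gene, had 4.35, 3.02 and 4.44 CPM in Control and 5.94, 4.44 and 9.15 CPM in GW3965.

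The same rule on the lower side gave a different picture. The 15 genes were Srpx, Matn4, Col9a2, Acan, Stard8, Msx1as, Tmem26, Gm3258, Ap2s1, Hapln1, Ethe1, Mme, Itfg3, Mrpl28 and D8Ertd738e. In the CT99021 libraries 2 of 15 were lower in every pair (11.3% of all genes), and 5 of 15 were higher in every pair (13.9%). Their median log2 fold change was -0.84 in the comparison that chose them and 0.07 in the CT99021 libraries. None passed the test in either.

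**Figure D2:**
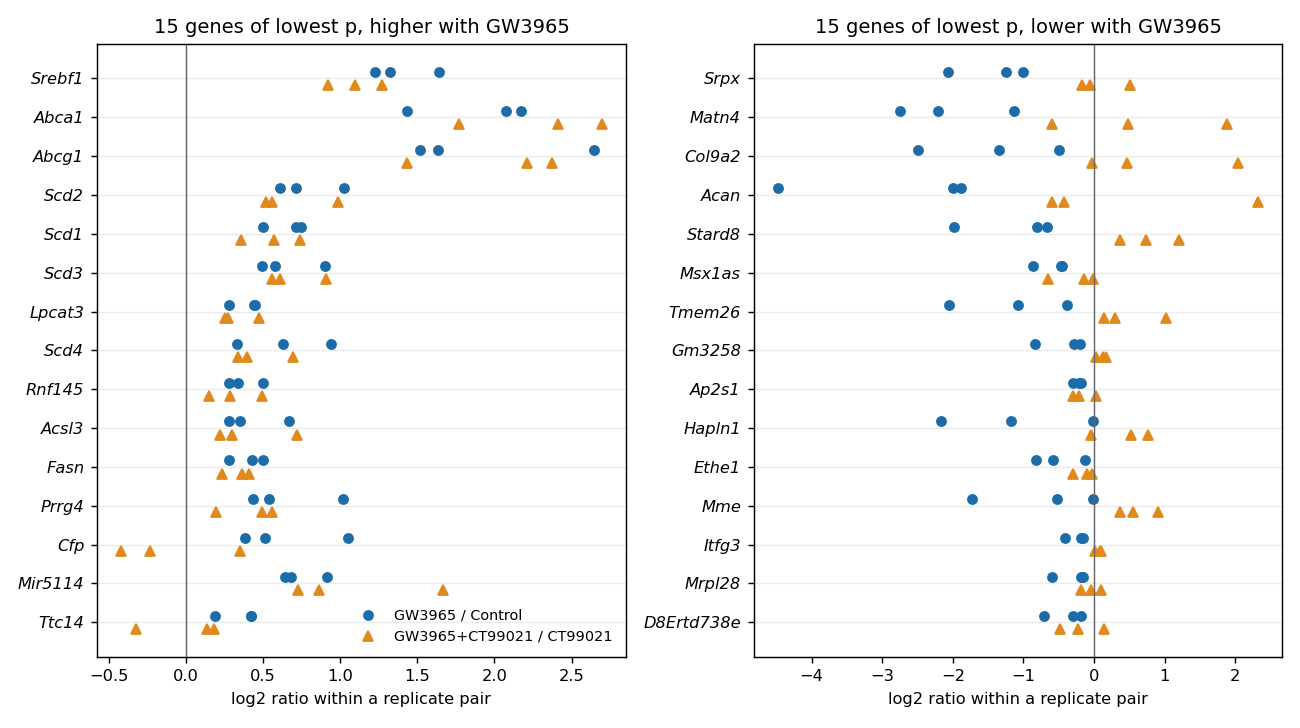
Log2 ratios within each replicate pair for the 15 genes of lowest p on each side, GW3965 to Control (circles, used for the choice) and GW3965+CT99021 to CT99021 (triangles, not used). On the higher side both symbols lie right of 0 for 13 of 15 genes, whereas on the lower side the triangles are spread around 0 and lie left of it in every pair for 2 of 15.

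Several genes on the lower side encode cartilage matrix proteins. Matn4, matrilin 4, had 3.66, 0.742 and 29.1 CPM in Control and 0.691, 0.269 and 4.22 CPM in GW3965, a log2 fold change of -2.62 ± 0.56 (edgeR adjusted p = 0.959). Col9a2, a chain of type IX collagen, had 12, 2.62 and 139 CPM in Control and 4.6, 1.82 and 24.6 CPM in GW3965. Control replicate 3 was the highest of the 6 libraries by a wide margin in both genes, and the groups overlapped. The CT99021 and GW3965+CT99021 libraries numbered 3 were higher still, at 42.4 and 59 CPM for Matn4 and 143 and 197 CPM for Col9a2. Col2a1, which encodes type II collagen, had 95.3, 71.9 and 666 CPM in Control and 47.4, 68.9 and 69.2 CPM in GW3965. Acan had 72, 7 and 233 counts in Control and 16, 0 and 7 in GW3965.

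The whole cartilage list was assembled after these genes had been seen. It had 12 members tested, 0 past edgeR's test and 6 lower at an unadjusted p under 0.05 (230 of all 15608 genes). In 8 of 12 all 3 pairs were lower (19% of all genes), and the median log2 fold change was -1.12. Both values describe genes chosen for being low. Its summed level was 278, 210 and 1436 CPM in Control and 181, 201 and 316 CPM in GW3965. The groups overlapped, and pair 3 held most of the difference. In the CT99021 libraries the sum went from 174, 171 and 1391 CPM to 152, 203 and 2012 CPM, lower in pair 1 and higher in pairs 2 and 3. An epidermis list, also assembled afterwards, summed to 27.8, 41.5 and 115 CPM in Control and 21.8, 25.5 and 16 CPM in GW3965. It had 11 members tested, 0 past edgeR's test and 2 lower at an unadjusted p under 0.05 (230 of all 15608 genes). In 8 of the 11 all 3 pairs were lower (19% of all genes). These counts too describe a list chosen after low values had been seen. Of its defining keratins, Krt5 had 4, 124 and 175 counts in Control and 0, 45 and 0 in GW3965. Krt14 had 8, 75 and 109 counts in Control and 0, 13 and 1 in GW3965, so both were near the floor in pair 1. Krt18 had 26, 24 and 20 counts in Control and 38, 14 and 32 in GW3965. Of the 11 members, 10 had a fitted log2 fold change below 0 and 1 above. The part of such cells in the lower genes was not tested.

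Genes at least 1.5-fold higher in every pair numbered 14 (0.0897% of those tested), and those at least 1.5-fold lower 16 (0.103%). A prior count of 5 in place of 2 gave 5 and 9, so the counts depend on this setting. At a mean of 1 CPM or more these were Srebf1, Abcg1, Abca1, Scd2, Mir5114, Kctd16 and Gdf15 on the higher side. On the lower side they were Srpx, Matn4, Acan, Stard8, Epyc, Acss3, Krt14 and Krt5. A milder rule over all 6 pairs, added after seeing the data, took genes at least 1.2-fold apart the same way with and without CT99021. It gave 11 genes higher (0.0705% of those tested) and 3 lower (0.0192%). At 1 CPM or more the former were Srebf1, Abcg1, Scd3, Scd2, Mir5114, Scd4, Scd1, Tmod4, Abca1 and AA792892, and the latter Llgl2, 2410004P03Rik and Plek2. Llgl2, a cell polarity gene, had 2.55, 2.47 and 2.94 CPM in Control and 2.07, 2.02 and 2.31 CPM in GW3965.

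Midbrain identity genes gave no call. In the floor plate and dopaminergic progenitor list 15 genes were tested, 0 passed edgeR's test, and 0 were higher and 1 lower (Msx1) at an unadjusted p under 0.05. Its median log2 fold change was 0.03. Foxa2, which specifies the floor plate, had 7.04, 7.96 and 33.5 CPM in Control and 7.73, 7.19 and 37.2 CPM in GW3965, a log2 fold change of 0.05 ± 0.13. Lmx1a, a determinant of dopaminergic progenitors, had 0.01 ± 0.20. Shh, the floor plate morphogen, had 0.25 ± 0.14, with ratios of 0.05, 0.00 and 0.61 in the pairs.

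Nr4a2, required for dopaminergic neurons, had 17.2, 14.6 and 19.4 CPM in Control and 16.4, 15.8 and 20.9 CPM in GW3965, a log2 fold change of 0.05 ± 0.17. Th, the tyrosine hydroxylase that makes dopamine, was near 1 CPM in all 6 libraries, at 1.23 ± 0.473 and 1.13 ± 0.165 CPM (SD, n = 3). Of 10 dopaminergic neuron genes tested, 0 passed and 0 had an unadjusted p under 0.05, with a median of -0.02. The proneural gene Neurog2 had 3.66, 5.05 and 2.46 CPM in Control and 3.5, 6.18 and 2.82 CPM in GW3965, a log2 fold change of 0.13 ± 0.30. Neural progenitor genes (14 tested, median -0.001) and pan-neuronal genes (11 tested, median -0.04) likewise had 0 calls and 0 at an unadjusted p under 0.05.

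Genes that inflammatory signals induce and that LXR is known to repress in macrophages gave no call. Of 10 listed, 6 were tested and 0 passed, with Ptgs2 higher at an unadjusted p under 0.05. Ptgs2, the inducible cyclooxygenase, had 29, 8.71 and 19.2 CPM in Control and 31.9, 10.3 and 90.7 CPM in GW3965, so the difference lay in pair 3.

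**Figure D3:**
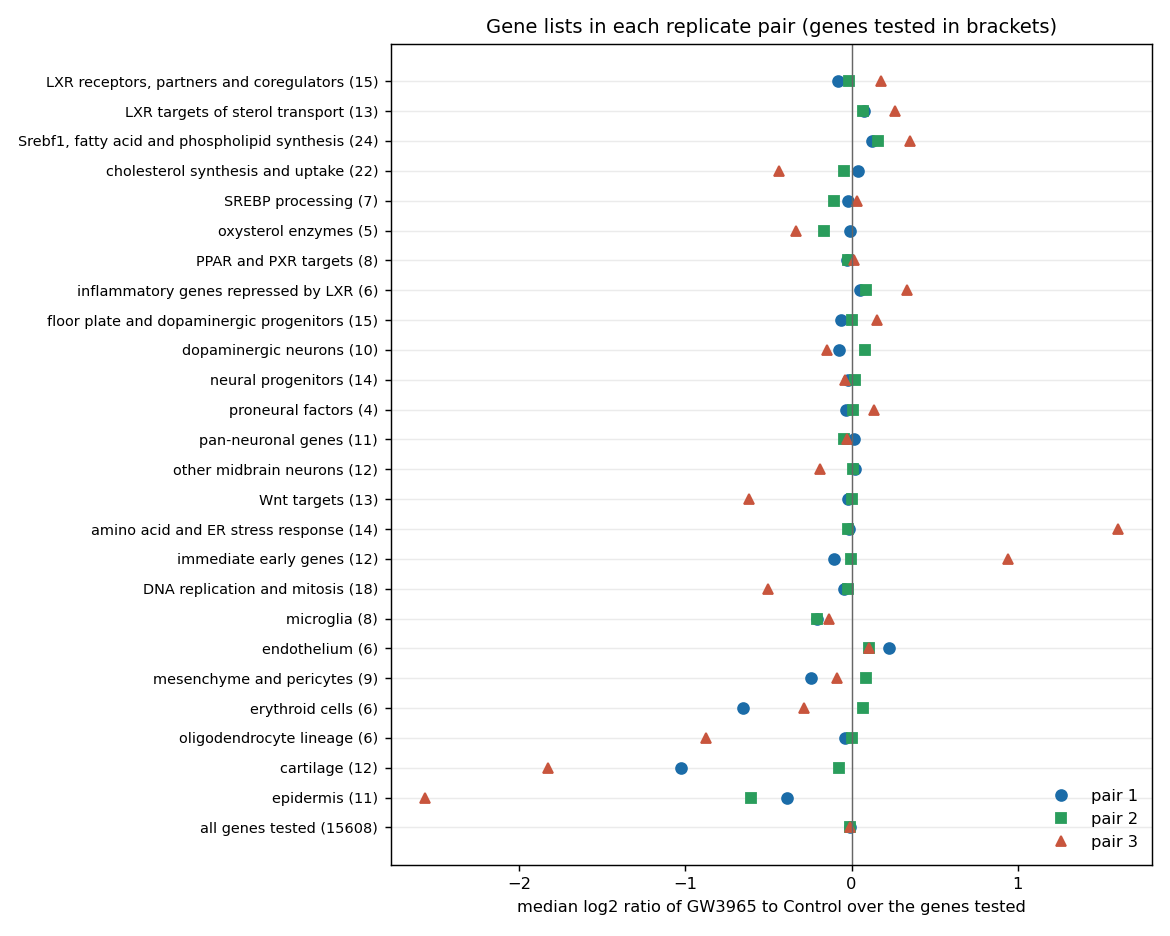
Median log2 ratio of GW3965 to Control in each replicate pair for every gene list, with the number of genes tested in brackets and all genes at the bottom. The fatty acid list lies right of 0 in all 3 pairs, at 0.13, 0.16 and 0.35, whereas the stress and immediate early lists lie right of 0 by 0.94 or more in pair 3 only, among these 3 pairs.

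Pair 3 differed from the others in a further way. Among 10754 genes at a mean of 10 CPM or more, the SD of the log2 ratio was 0.134 in pair 1, 0.129 in pair 2 and 0.363 in pair 3. In the CT99021 libraries it was 0.305, 0.297 and 0.314, so pair 3 did not stand out there by this measure, and 142, 142 and 126 genes were at least 2-fold apart. Between GW3965 and Control, genes at least 2-fold apart numbered 11, 4 and 181, and of the 181 in pair 3, 118 were higher and 63 lower in GW3965. Of these 181, 141 lay within 1.2-fold of no difference in both other pairs.

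The higher ones included genes that cells induce when short of amino acids or with misfolded protein in the endoplasmic reticulum. Ddit3, the stress factor CHOP, measured 17.4, 17.2 and 25 CPM in Control and 16.1, 18.3 and 133 CPM in GW3965. Trib3, a target of CHOP, had 4.54, 14.1 and 16.4 CPM in Control and 3.59, 14.3 and 113 CPM in GW3965. Chac1, which degrades glutathione, had 10.2, 5.74 and 5.24 CPM in Control and 10.9, 5.92 and 91.8 CPM in GW3965. In each, GW3965 replicate 3 was the single high library of the 6. Asns, asparagine synthetase, had ratios of 0.06, 0.06 and 2.48 on the log2 scale in the 3 pairs.

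All 14 genes of the stress list were higher in pair 3, where the median ratio was 1.60, against -0.02 in each of the others. The list summed to 1915, 1901 and 1787 CPM in Control and 1887, 1832 and 3707 CPM in GW3965. In the CT99021 background the library with GW3965 numbered 3 was again high, at 4233 CPM against 2097 CPM in CT99021 replicate 3, with pair medians of -0.10, -0.02 and 1.38. So 2 libraries, GW3965 and GW3965+CT99021 of number 3, were high, and the Control and CT99021 libraries of number 3 were not. None of the 14 passed edgeR's test (0 at an unadjusted p under 0.05, fitted median 0.55). Gdf15, a stress hormone, had 0.51, 0.594 and 0.793 CPM in Control and 0.875, 1.14 and 14.1 CPM in GW3965. The labels do not say how these libraries differ from the others, and the part of any such difference in pair 3 was not tested.

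**Figure D4:**
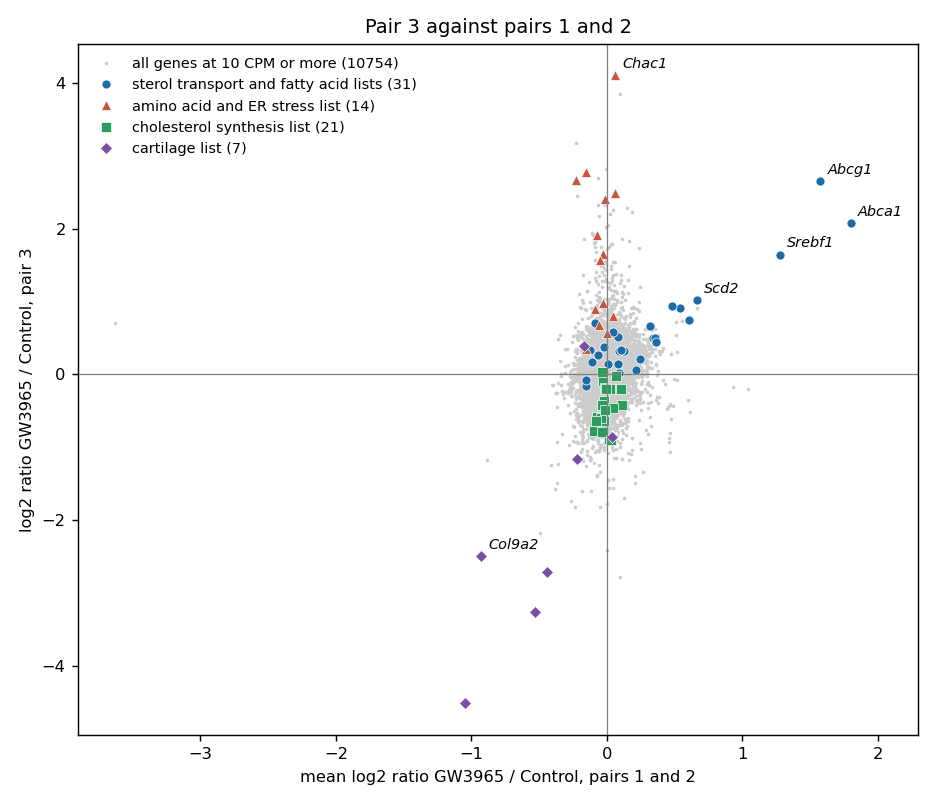
Each point is a gene at a mean of 10 CPM or more over the 6 libraries, by its mean log2 ratio of GW3965 to Control in pairs 1 and 2 (x axis) and its ratio in pair 3 (y axis). Abca1, Abcg1, Srebf1 and Scd2 lie to the right and above 0, so they were higher in all 3 pairs, whereas stress genes lie near 0 on the x axis and reach 4.10 (Chac1) on the y axis.

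Other lists moved with pair 3 as well. Immediate early genes (12 tested) had pair medians of -0.11, -0.003 and 0.94. DNA replication and mitosis genes (18 tested) had -0.04, -0.02 and -0.50, and all 18 were lower in pair 3. In 10 of the 18 all 3 pairs were lower (19% of all genes tested), and in 0 all were higher (14.2%). Wnt targets (13 tested), which CT99021 is known to raise, had -0.02, 0.004 and -0.62. In none of these lists did a gene pass edgeR's test, and 0 had an unadjusted p under 0.05. Mki67, a marker of dividing cells, measured 333, 528 and 513 CPM in Control and 322, 525 and 365 CPM in GW3965.

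**Figure D5:**
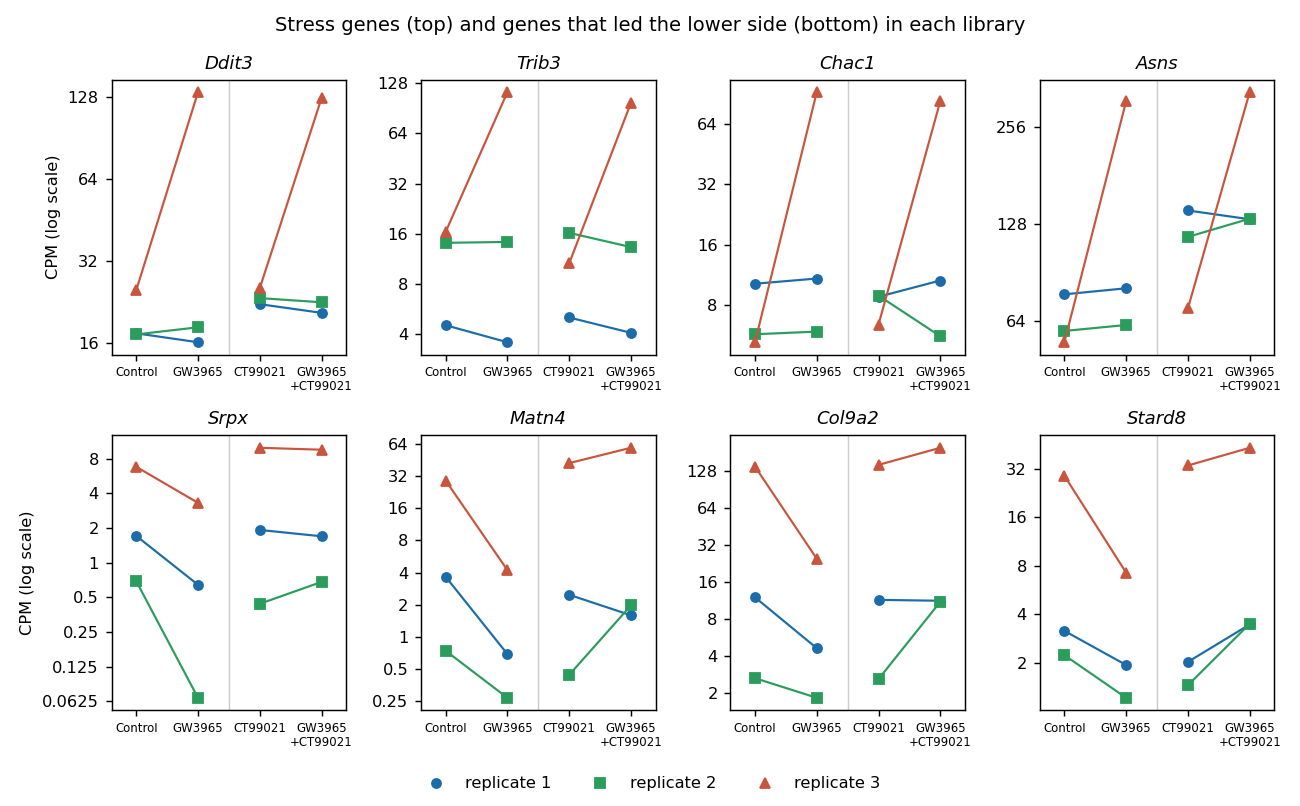
CPM (log scale) in each of the 12 libraries for 4 stress genes (top) and 4 genes of the lower side (bottom), with lines joining libraries of 1 replicate number. The stress genes are high in the GW3965 and GW3965+CT99021 libraries numbered 3, and the genes at the bottom are lower with GW3965 than in Control in each pair but not so in the CT99021 libraries.

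Mesenchymal and erythroid markers varied more between replicate numbers than between GW3965 and Control. The mesenchyme and pericyte list summed to 1446, 239 and 2965 CPM in Control and 1216, 252 and 2591 CPM in GW3965. Erythroid genes summed to 3492, 6144 and 12570 CPM in Control and 2224, 6255 and 10023 CPM in GW3965. Of 6 erythroid genes tested, 0 passed edgeR's test and 2, Hba-x and Hbb-y, were lower at an unadjusted p under 0.05 (230 of all 15608 genes). Microglia genes (8 tested) summed to 50.1, 29.8 and 37.2 CPM in Control and 42.3, 25.3 and 36.3 CPM in GW3965, and endothelial genes (6 tested) to 44.3, 46.8 and 42.1 CPM against 43.7, 48.3 and 52.9 CPM. None of these passed, and 0 of either had an unadjusted p under 0.05.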

How the data were processed

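The authors deposited raw read counts, whole numbers with no normalization, for 23965 gene rows and 1217 repeat rows in 12 libraries. The submitters' processing notes name Bowtie and mm9. Their roles, the counting program and its use of strand are not stated there or in the labels. From these counts, edgeR 4.0.16 in R 4.3.3 was run once on all 12 libraries, with TMM factors, the filterByExpr filter (15608 genes kept), a mean per group and the replicate number as a block. The quasi-likelihood F test was used with Benjamini-Hochberg adjustment, with genes called at an adjusted p under 0.05. CPM are scaled by TMM, and pair ratios are log2 with a prior count of 2. Repeat rows stayed out of totals.

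Pairing rests on the data: deviations from group means correlated at 0.789 to 0.791 for same-numbered GW3965 and Control libraries, and at -0.593 to 0.0481 for others. Deviations from a group mean cancel within the group, so a high same-number correlation by itself pulls the others down. Replicates of a group differed beyond sampling noise (chi-square per gene 29.6 to 145). Data were simulated for 15495 genes of GW3965 against Control, with 200 changed. There 189 genes were called (10 falsely), including 84% of changes of 1 log2 unit and 95% of 2. These shares describe the simulated data. How far they hold for the libraries, whose log2 ratios were spread unequally between pairs, was not tested.

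Named genes were those past the test, the 15 of lowest p on each side at 1 CPM or more with all pairs of 1 sign, those 1.5-fold apart in every pair, and list members. Members and lists were chosen with earlier results of these data known. Alternatives covered DESeq2 1.42.0, limma-voom 3.58.1, other factors, filters, blocks, prior counts and left-out libraries. Some list members are not reported here.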

Additional observations from a re-analysis of the deposited data

Results flagged for a closer look

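Of 19 named genes that were lower in every pair with GW3965 alone, 7 were higher in every pair in the CT99021 libraries. The same held for 256 of the 2968 genes that were lower in every pair with GW3965 alone. These 256 are 1.64% of all 15608 genes tested. The difference between the 2 log2 fold changes was 1.89 ± 0.48 for Stard8, 1.90 ± 0.51 for Tmem26, 0.55 ± 0.19 for Gm3258 and 1.43 ± 0.38 for Mme. It was 0.311 ± 0.11 for Itfg3, 1.60 ± 0.63 for Epyc and 1.49 ± 0.41 for Acss3 (edgeR interaction, adjusted p = 0.999 for each). Stard8 measured 3.15, 2.23 and 29 CPM in Control and 1.93, 1.21 and 7.24 CPM in GW3965. With CT99021 it went from 2.02, 1.45 and 33.5 CPM to 3.45, 3.49 and 43.2 CPM.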

How the results depend on the processing

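The log2 fold changes of Abca1, Abcg1 and Srebf1 in GW3965 against Control kept their direction under all 23 alternatives (1.75 to 2.10 for Abca1), and Srebf1 passed under 20, Abca1 under 18 and Abcg1 under 10. In GW3965 against Control, 3 genes passed with the replicate block, 0 without the replicate block (23 at an unadjusted p under 0.05), 7 with DESeq2 and the block, and 0 in the 6 libraries alone with edgeR (726 unadjusted). The counts were 5 without a filter and 0 without the libraries numbered 2. Leaving out 1 library gave 1 to 5: 1 without Control replicate 2 or Control replicate 3, and 5 without CT99021 replicate 3. In the 7 libraries that lack those numbered 3 and GW3965+CT99021 replicate 2, a fit added after seeing the data, the count was 5.

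In GW3965+CT99021 against CT99021 the count of 3 became 0 without the block (165 unadjusted), 0 in the 6 libraries alone, 13 with DESeq2, 0 without the libraries numbered 1 or 2, 9 without those numbered 3 and 90 in the 7 libraries. Leaving out 1 library gave 2 to 10, with 10 without GW3965+CT99021 replicate 3. Genes 1.5-fold apart in every pair numbered 14 higher and 16 lower, and 5 and 9 with a prior count of 5. The cause of these shifts was not tested. Several listed genes had too few counts to be tested, among them Abcg5, Abcg8 and Pitx3.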

Other observations

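Repeat families, counted in rows of their own, were tested apart from the genes. Of 301 with enough counts, 0 passed edgeR's test between GW3965 and Control (5 at an unadjusted p under 0.05).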
